A study of Mus musculus with 6 samples.

Results

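Integrins are cell surface receptors built of an alpha and a beta subunit, and they bind extracellular matrix and secreted ligands. Osteopontin, the product of Spp1, is a secreted ligand of several of them and binds through an arginine-glycine-aspartate motif. At implantation the apical face of the luminal epithelium of the uterus meets the embryo, and integrins with the alpha v subunit, together with osteopontin, are much studied as attachment molecules there. At the base of the same cells the alpha 6 beta 4 integrin anchors the epithelium to laminin through hemidesmosomes.

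The genes described here are 10 in number: the ligand gene Spp1, the alpha subunit genes Itgav, Itga1 and Itga6, and the beta subunit genes Itgb1, Itgb3, Itgb4, Itgb5, Itgb6 and Itgb8. They were chosen by name, and each probe whose symbol in the scanner tables is one of these names was taken, 22 of the 45281 probes on the bead chip. Of these 22 probes, 13 were above background (detection p-value under 0.05) on at least 3 of the 6 arrays and were tested. They cover 7 of the 10 genes. Itgb3, Itga1 and Itgb8 had no probe that passed.

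RNA came from the luminal epithelium of the mouse uterus 3.5 days post coitum, in 3 samples labelled Control (arrays A, B and C) and 3 samples labelled Alk3 cKO (arrays D, E and F, here CKO). CKO females were Alk3 flox/flox and carried 1 copy of a Pgr-cre knock-in, Pgr cre/+, so that Cre was made wherever the progesterone receptor locus is active, which in the uterus includes stroma and muscle as well as epithelium. Alk3, also called Bmpr1a, is a BMP (bone morphogenetic protein) receptor of type I. The alleles of the Control animals are not given in the sources used here, and all mice were of the hybrid C57BL/6J and 129S5/SvEvBrd background. Nothing in the labels states that the arrays were separate animals, so every p-value rests on a spread that may be technical. All 6 arrays lay on 1 chip with Control at positions A to C and CKO at D to F, so chip position and group cannot be told apart.

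Probes above background numbered 16620 to 17536 per array, and the median probe was averaged over 39 to 42 beads. CKO array E stood apart, with a mean correlation of 0.936 with the other arrays, against 0.953 to 0.970 for the rest, so values without it are given beside the results that moved most with it. The brighter probe of the targeted gene Bmpr1a differed by -0.60 (SE 0.22) on the log2 scale, CKO minus Control, and did not pass the test. The floxed segment is exon 2, and where the probe lies against it was not tested, so the value does not check the deletion. The summed normalised signal of 8 pan-epithelial markers (Cdh1, keratins and claudins among them) was 36492 to 39152 on Control arrays and 31952 to 40464 on CKO arrays. The lowest sum, 31952, was that of array E. Epcam in that list and Calb1 in the luminal list were not above background on any array by their brightest probe. In bulk RNA of this kind, fewer cells of a type and less RNA per cell cannot be told apart.

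No gene of the group passed the test between CKO and Control by limma's adjusted p. Of the 7 genes tested, 0 passed at an adjusted p under 0.05, against 0.0168% of all 11940 genes tested, and 1 gene, Itgb5, had an unadjusted p under 0.05, against 4.72% of all genes. Spp1, Itgb5, Itgb6 and Itgb1 were lower in CKO by their mean and Itgav, Itga6 and Itgb4 higher, where 51.7% of all genes had a lower mean in CKO. None of the 7 differed by more than 2-fold, against 2.36% of all genes. Of the 13 probes, 0 passed and 1 had an unadjusted p under 0.05, against 0.0174% and 4.56% of all 17291 probes. Groups that do not overlap were found for 0 of the 13 tested probes and for 10.3% of all probes tested. Signals are given as normalised log2 intensity, and differences are CKO minus Control. Over the 22 probes of the group, values that were not above background ran from 4.29 to 5.04. The median difference was -0.28 over the 7 genes and -0.01 over all genes. Adjusted p-values of the 7 genes ran from 0.976 to 0.977.

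**Figure D1:**
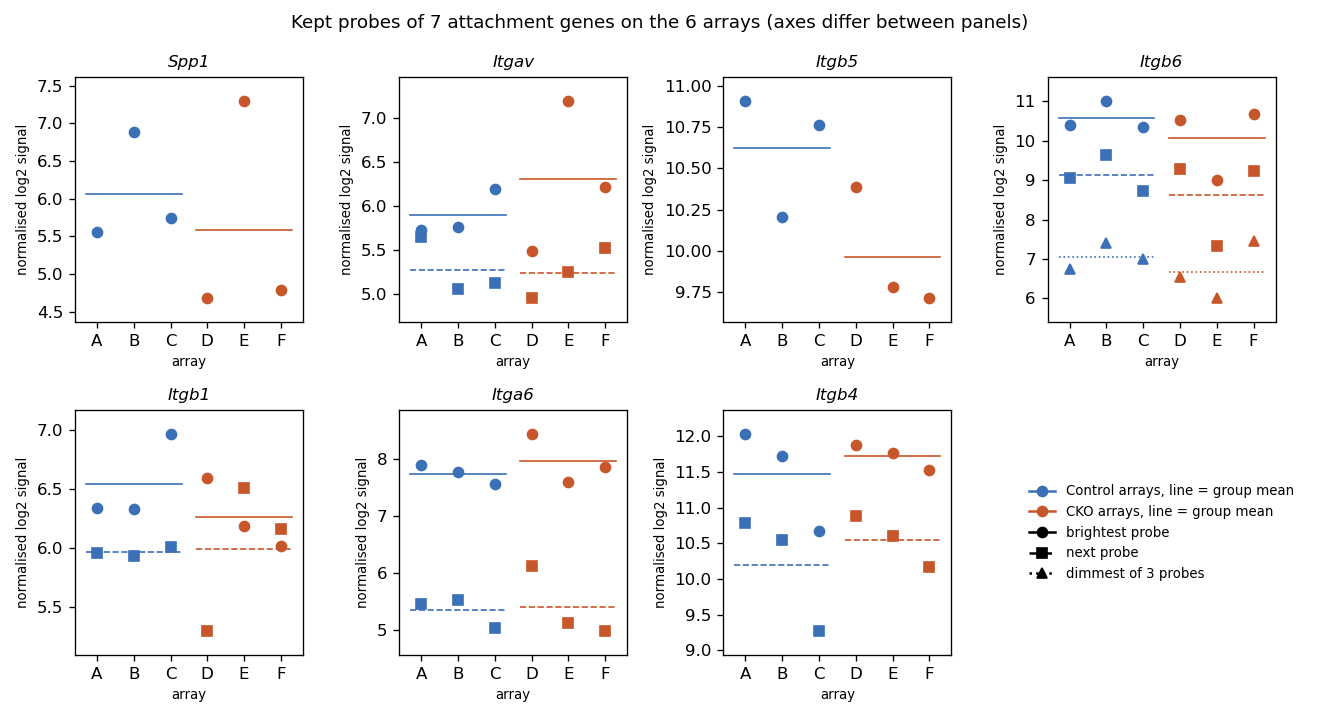
Normalised log2 signal (y axis, a different range in each panel) of the 13 tested probes of 7 attachment genes on Control arrays A to C (blue) and CKO arrays D to F (orange), with lines at the group means and marker shapes for different probes of a gene. The groups overlap for every probe; Itgb5 has its 2 lowest values on CKO arrays E and F, and Spp1 has its highest on E and its lowest on D and F.

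The ligand gene Spp1 had the widest spread of the group. Its single probe gave a normalised log2 signal of 5.56, 6.88 and 5.74 on Control arrays A, B and C and of 4.68, 7.30 and 4.79 on CKO arrays D, E and F. It was above background on all 3 Control arrays but only on array E in CKO. The raw signal on E was 222.2 with an SE of 13.4 over 36 beads, and on D it was 79.7 with an SE of 3.85 over 38 beads, so the distance between CKO samples was much wider than the bead error. Thus the CKO group held both the highest sample and the 2 lowest, and the Control samples lay between them. CKO had a mean of 5.59 ± 1.48 (SD, n = 3) against 6.06 ± 0.72 (SD, n = 3) for Control, a difference of -0.47 (SE 0.75, 95% confidence interval -2.27 to 1.33, limma's adjusted p 0.977). Without array E the difference was -1.31 (limma's unadjusted p 0.0201, adjusted p 0.971). With arrays weighted by their quality it was -1.54 (limma's unadjusted p 0.0187, adjusted p 0.316), and neither difference passed. Without Control array B it was -0.059, without D -0.021 and without F -0.076, so the mean difference was close to 0 when any of these arrays was left out. The interval allows a change of over 2-fold in either direction, so the arrays do not settle whether Spp1 differs.

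Spp1 is made by several cell types, among them macrophages and uterine glandular epithelium. The summed signal of 10 macrophage and dendritic cell markers was 756, 1157 and 1174 on arrays A to C and 849, 1110 and 1829 on D to F. The sum was highest on F, where Spp1 was low. Lyz2, Cd74, H2-Aa and C1qb were highest on F, but Cd68 was highest on E, Csf1r on D and C1qa on B. Of these markers, Itgax and Mrc1 were above background on no array. The 8 glandular markers summed to 5648, 2868 and 733 on A to C and to 1934, 6441 and 1796 on D to F. Their sum was thus highest on array E, as Spp1 was, but the single markers differed. Prss29, Ttr and Sox9 were highest on E, at 10.53, 6.52 and 10.78. Spink1 was highest on A, at 12.08 against 11.41 on E. Cxcl15 was highest on B, at 9.15 against 6.90 on E, and Lif on F, at 5.59 against 5.33 on E. Foxa2, the gland-defining transcription factor of that list, did not pass the filter on detection. On array A the glandular sum was second highest, while Spp1 was the lowest of the Control samples. Among Control arrays, Spink1 and Prss29 were highest on A, at 12.08 and 8.27. Cxcl15, Ttr, Lif and Sox9 were highest on B, as Spp1 was. The part of gland cells and macrophages in the Spp1 values was not tested.

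Among the genes whose centred profile over the 6 arrays lay closest to that of Spp1 were Aqp5, Rnf125, Slc5a8 and F2r, with root mean square differences of 0.41, 0.46, 0.47 and 0.48 on the log2 scale over 10065 genes compared. Aqp5, a water channel, had 6.01, 7.42 and 5.54 in Control and 5.69, 7.93 and 5.80 in CKO, high on the same 2 arrays as Spp1. All 4 genes had their highest value on E. Without E, none of the 4 stayed among the nearest 5, and Aqp5 was the 15th, so the list rests on that array. The likeness is a description over 6 arrays, with no test.

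The upstream sequence of Spp1 is shown because the knockout removes a receptor that signals through SMAD proteins, and the sequence of Itgb5 because it is the gene of the group with the smallest p. Both are the 250 bases before the gene's start, from RefSeq on GRCm38.p6, written 5′ to 3′ on the plus strand, at chr5:104434861-104435110 for Spp1 and chr16:33829415-33829664 for Itgb5. Capitals mark GTCTG, a SMAD binding element, on either strand. Upstream windows were at hand for 7 of the 10 genes, 9 windows in all, a pair of start sites being listed for Spp1 and Itgb6.
Spp1: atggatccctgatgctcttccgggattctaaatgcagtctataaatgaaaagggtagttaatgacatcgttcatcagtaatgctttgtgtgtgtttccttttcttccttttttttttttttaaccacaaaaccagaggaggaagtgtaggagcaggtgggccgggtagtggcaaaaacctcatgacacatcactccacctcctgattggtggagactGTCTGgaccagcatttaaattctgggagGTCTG
Itgb5: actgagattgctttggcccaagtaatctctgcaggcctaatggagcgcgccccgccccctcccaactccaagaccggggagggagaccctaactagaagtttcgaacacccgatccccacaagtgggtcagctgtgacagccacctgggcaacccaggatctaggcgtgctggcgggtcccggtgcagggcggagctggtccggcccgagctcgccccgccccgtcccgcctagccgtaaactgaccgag
The Spp1 window holds GTCTG in 2 places, and the Itgb5 window holds neither that element nor GGCGCC, the GC-rich core bound by BMP-activated SMADs. Over the 9 windows, 6 hold GTCTG, against 42.2% of 32851 windows of the same length over all genes. GGCGCC is in 1 window, that of Itgb1, against 9.59% of all windows. AGGTCA, a nuclear receptor element that estrogen receptors bind, is in 0 of the 9, against 14% of all windows. Both strands were searched, matches of the 3 motifs did not overlap one another in these windows, and a match is a run of letters, not a site shown to be bound.

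The alpha v subunit gene Itgav, whose product pairs with the beta 1, 3, 5, 6 and 8 subunits, was measured by 2 tested probes that did not give the same picture. The brighter, ILMN_1238119, gave 5.73, 5.77 and 6.20 in Control and 5.50, 7.19 and 6.22 in CKO. Array E lay well above the other 5, and array D below all of them. The difference was 0.41 (SE 0.42, limma's adjusted p 0.977), and without array E it was -0.04. The other tested probe, ILMN_1251946, gave 5.65, 5.06 and 5.13 in Control and 4.96, 5.26 and 5.52 in CKO, a difference of -0.04 (SE 0.24), and was not raised on E. A further pair of Itgav probes was below background on all 6 arrays. On array E the 7 endothelial markers summed to 791, against 191 to 382 on the other arrays. Cdh5, Tek, Emcn and Vwf of that list were highest on E. Kdr and Cldn5 were highest on D, at 5.98 and 6.39, against 5.49 and 5.23 on E. Pecam1 did not pass the filter on detection. Endothelium is a known site of alpha v, and its part in the Itgav values was not tested.

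With all 6 arrays and the main processing, Itgb5 was the one gene of the group with an unadjusted p under 0.05. Its single probe gave 10.91, 10.21 and 10.76 on Control arrays A, B and C and 10.39, 9.78 and 9.71 on CKO arrays D, E and F. CKO arrays E and F lay below all Control arrays, but D lay above Control array B, so the groups overlapped. The raw signals, before scaling between arrays, were 2154, 1334 and 1756 in Control and 1295, 930 and 853 in CKO. In the raw signals D was just below B, where the SE over beads was 75.0 on D and 52.4 on B. The CKO arrays had a mean of 9.96 ± 0.37 (SD, n = 3) against 10.63 ± 0.37 (SD, n = 3) for Control, a difference of -0.66 (SE 0.28, 95% confidence interval -1.32 to -0.01), or 0.631 times the Control level. The unadjusted p was 0.0487 and limma's adjusted p 0.976, so the gene did not pass. The exact two-sided permutation p was 0.2, where 3 against 3 arrays cannot go below 0.1.

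Itgb5 was lower in CKO under all 16 alternatives, with differences of -0.88 to -0.52, and did not pass under any (lowest adjusted p 0.373). Without array E the difference was -0.58. Limma's unadjusted p was over 0.1 when any of arrays A, C, E or F was left out, but 0.0226 without B and 0.0171 without D. Beta 5 pairs with alpha v as a vitronectin receptor, and Vtn, the vitronectin gene, did not pass the filter on detection.

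Itgb6, whose product with alpha v binds fibronectin and activates latent TGF-beta and is largely confined to epithelia, was measured by 3 tested probes. The brightest, ILMN_2805372, gave 10.40, 11.01 and 10.35 in Control and 10.52, 9.01 and 10.69 in CKO. Array E was lowest by a wide margin, and CKO arrays D and F lay among the Control arrays. The next probe, ILMN_2805375, gave 9.05, 9.65 and 8.72 in Control and 9.28, 7.32 and 9.24 in CKO, again with E lowest. The dimmest, ILMN_2604243, gave 6.73, 7.39 and 6.99 in Control and 6.55, 6.00 and 7.46 in CKO, with E lowest and F highest. On all 3 probes, then, E was the lowest array. The differences were -0.51 (SE 0.47), -0.53 (SE 0.56) and -0.37 (SE 0.39), each with limma's adjusted p at 0.985 over all probes. Without array E they were 0.02, 0.12 and -0.03. The lower CKO mean of Itgb6 thus rests on 1 sample.

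The genes closest to Itgb6 in their centred profile were Laptm4b, Lrrc26, Arcn1, Cyp4a12a and Zfp1, with root mean square differences of 0.13, 0.14, 0.14, 0.15 and 0.15. Laptm4b, for example, had 6.96, 7.34 and 6.98 in Control and 6.92, 5.70 and 7.18 in CKO. All 5 shared the low value on array E, and without E none stayed among the nearest 5, the best placed being Zfp1 as the 24th.

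Itgb3 and Itgb8, the remaining partners of alpha v in the group, were not measured above background. The single Itgb3 probe had raw signals of 78.2 to 90.1 on Control arrays and 73.6 to 81.6 on CKO arrays, not above background on any of the 6. Beta 3 is the partner in the alpha v beta 3 receptor and, with the Itga2b product, in platelets. Of the platelet markers, Pf4, Gp9 and Ppbp were also above background on no array, while Itga2b, the gene of that alpha subunit, gave 8.33 to 8.92 over the 6 arrays and differed by -0.20 (SE 0.20, adjusted p 0.976 by limma). Itgb8, whose product also activates latent TGF-beta, had 2 probes. One was above background on Control array B only, with a raw signal of 106.9 (SE 6.45 over 37 beads), and the other on none. That other probe was higher on the 3 CKO arrays (4.57 to 4.75) than on the 3 Control arrays (4.50 to 4.54), but every value was below background, so no difference in Itgb8 is measured. Absence of signal on a probe does not show that the gene is silent.

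**Figure D2:**
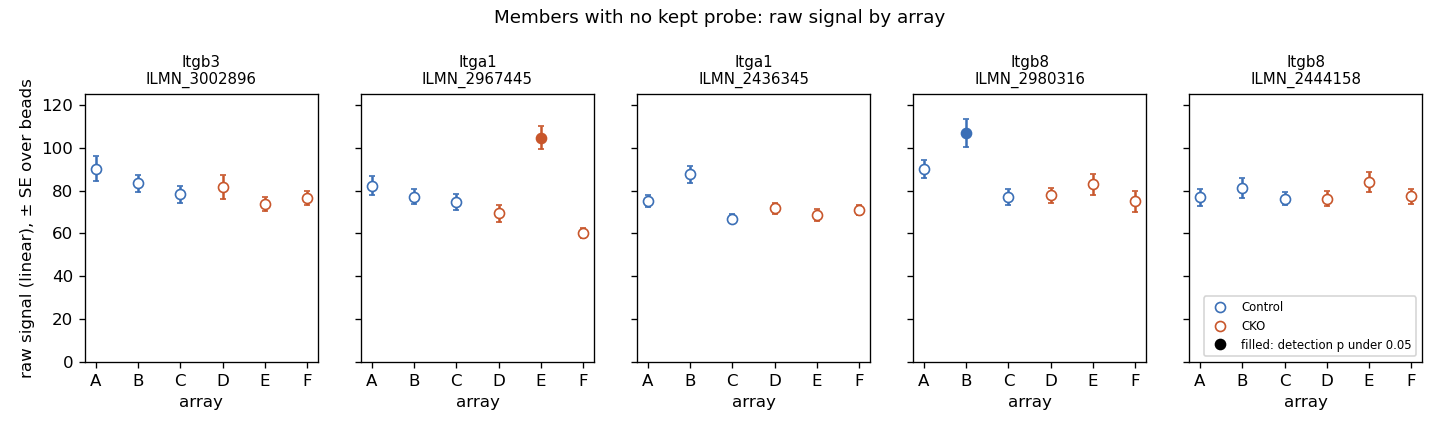
Raw signal on the linear scale (y axis, from 0) of the 5 probes of Itgb3, Itga1 and Itgb8 on Control arrays A to C (blue) and CKO arrays D to F (orange), with bars for the SE over beads and filled points where the detection p-value was under 0.05. Only 1 Itga1 probe on CKO array E (104.7) and 1 Itgb8 probe on Control array B (106.9) are filled.

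Itgb1, the common beta subunit that pairs with most alpha subunits, had 2 tested probes. The first, ILMN_2789077, gave 6.34, 6.33 and 6.96 in Control and 6.59, 6.18 and 6.02 in CKO, a difference of -0.28 (SE 0.25, limma's adjusted p 0.976) that was -0.072 without Control array C. The second, ILMN_2609304, gave 5.96, 5.94 and 6.01 in Control and 5.30, 6.51 and 6.16 in CKO, a difference of 0.02 (SE 0.32). Array D was above 2 Control arrays by the first probe and lowest by the second, and E was low by the first and highest by the second. The probes therefore put the CKO samples in different orders, and their differences had opposite signs. Both were dim, with raw signals between 95.1 and 181.0, and 23 to 57 beads behind each value.

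Itga1, the alpha subunit of the collagen and laminin receptor alpha 1 beta 1, had no tested probe. The probe ILMN_2967445 was above background on CKO array E alone, with a raw signal of 104.7 (SE 5.26 over 41 beads), against 60.3 to 82.2 on the other 5 arrays. The other Itga1 probe, ILMN_2436345, was at 68.5 on E and below background on all arrays. Alpha 1 is known from smooth muscle, stroma and endothelium. The sum of the endothelial markers was highest on E. The 7 smooth muscle markers summed to 1098 on E, against 2259 on array A and 299 to 764 on the other 4. Acta2 of the smooth muscle list gave 10.98 on A and 9.61 on E. Des and Mylk were highest on E, at 6.04 and 6.57, and Smtn was 6.36 on both D and E. Myh11, Tagln and Cnn1 of that list were above background on no array. The part of endothelium and smooth muscle in the Itga1 signal was not tested.

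The hemidesmosome pair, Itga6 and Itgb4, was measured well above background. Itga6 by its brightest probe, ILMN_1231492, gave 7.89, 7.76 and 7.55 in Control and 8.43, 7.58 and 7.86 in CKO. Array D was the highest and the other CKO arrays lay among the Control arrays. The difference was 0.22 (SE 0.25, 95% confidence interval -0.38 to 0.83, limma's adjusted p 0.977), and without D it was -0.01. A second probe, ILMN_1223670, above background on 4 arrays, was also highest on D, at 6.12 against 4.99 to 5.54 elsewhere, with a difference of 0.06 (SE 0.33). The other pair of Itga6 probes was below background throughout. Array D also had the highest sum of 10 stroma markers, 6247 against 1062 to 2836 on the other arrays. Dcn, the brightest of them, gave 12.36 on D and 9.50 to 11.20 elsewhere. Vim, Col1a2, Col3a1 and Lum were also highest on D, but Col1a1 and Thy1 were highest on E. Hoxa11 and Hand2 of that list were above background on no array. The part of stroma in the Itga6 value was not tested.

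Itgb4 gave 12.03, 11.72 and 10.66 in Control and 11.87, 11.77 and 11.53 in CKO by its brightest probe, ILMN_3144575. Control array C was the lowest, and the 3 CKO arrays lay close together between C and A. The other probe, ILMN_2634689, gave 10.79, 10.54 and 9.27 in Control and 10.88, 10.61 and 10.17 in CKO, again with C lowest. The differences were 0.25 (SE 0.36, adjusted p 0.977 by limma over genes) and 0.35 (SE 0.42). Without array C both were below 0, at -0.16 and -0.12. As with Itgb6, the direction of the mean rests on 1 array, here a Control array. The raw signal of ILMN_3144575 on C was 1632 with an SE of 41.7, against 2885 to 4625 elsewhere, so the low value on C is well beyond the bead error.

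**Figure D3:**
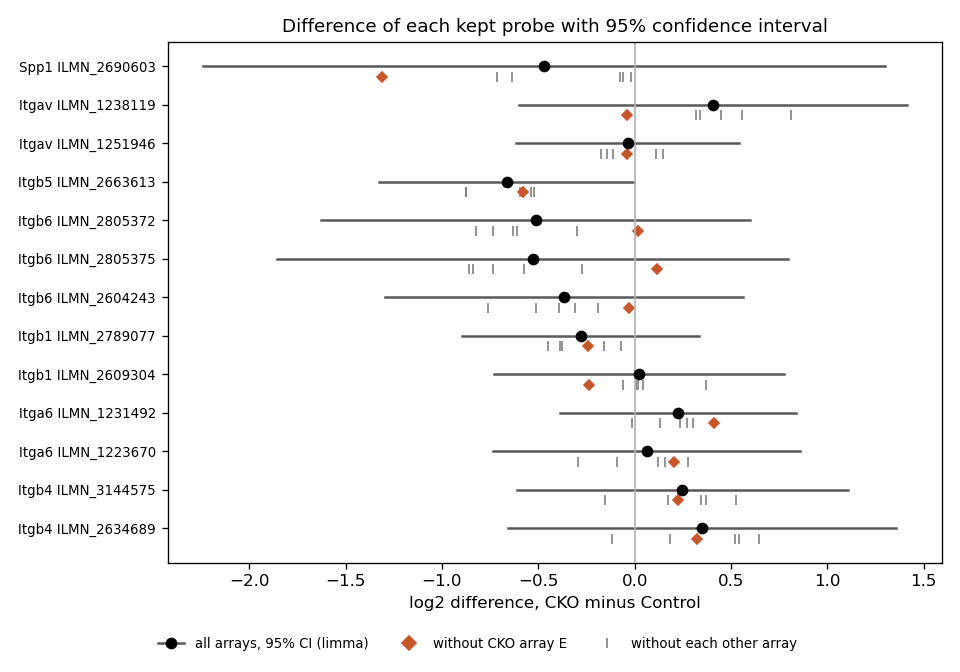
Log2 difference between CKO and Control (x axis, CKO minus Control) of each of the 13 tested probes (rows), with limma's 95% confidence interval, and below each the difference without array E (orange diamond) and without each other array (grey ticks). Only the interval of Itgb5 lies below 0, by 0.003 at its upper end, and the Itgb6 diamonds lie near 0, at 0.02, 0.12 and -0.03.

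Every tested probe varied among the arrays. The range over the 6 arrays was between 0.69 and 2.62 on the log2 scale for the 13 tested probes. Array D was the highest or lowest array for 7 of the 13, E for 6, C and F for 4 each, A for 3 and B for 2. The same counts were not taken over all probes, so they describe these 13 only. On E, 3 probes were at their highest and 3, all of Itgb6, at their lowest.

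The genes around this group were taken from 9 lists of integrin subunits, ligands and adhesion partners. Of 78 genes tested in them, 46 were higher and 32 lower in CKO, and 0 passed by limma's adjusted p. An unadjusted p under 0.05 was reached by 2 of them, where 4.72% of all genes reached it. Groups did not overlap for 2 genes, or 2.56% of the 78, against 10.6% of all genes tested. Their median difference was 0.06, against -0.01 over all genes.

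**Figure D4:**
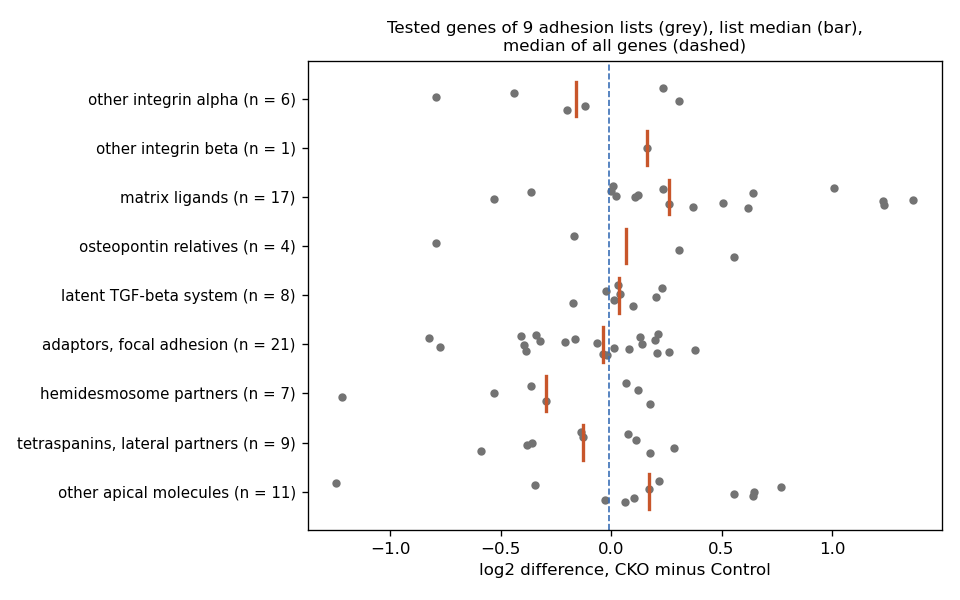
Log2 difference between CKO and Control (x axis) of each tested gene (grey points) in 9 lists of adhesion genes (rows), with the list median as an orange bar and the median of all 11940 genes as a dashed line at -0.01. The matrix ligand list has its median at 0.26 and reaches furthest to the right, and the hemidesmosome list has its median at -0.30.

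Other alpha subunits were tested for 6 of 15 genes, 2 higher and 4 lower, with a median of -0.16. Itga9, a subunit that also binds osteopontin, gave 10.35, 10.89 and 10.84 in Control and 10.68, 8.54 and 10.47 in CKO, a difference of -0.79 (SE 0.56) that was -0.12 without array E. Its low value on E runs alongside that of Itgb6. Itga5, of the fibronectin receptor, differed by 0.31 (SE 0.23) and Itgae, the partner of beta 7 on intraepithelial lymphocytes, by -0.44 (SE 0.38). Of the other beta subunits only Itgb2, of leukocyte integrins, was tested, at 0.16 (SE 0.17). Among 9 receptors and relatives of osteopontin, Itga9 and Itga5 included, 4 were tested, 2 higher and 2 lower, with a median of 0.07. Cd44, a hyaluronan receptor that also binds osteopontin, gave 5.15, 5.89 and 5.68 in Control and 6.19, 6.45 and 5.75 in CKO, a difference of 0.55 (SE 0.27). Its CKO array F lay below Control array B, so the groups overlapped.

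Matrix ligands of these integrins were tested for 17 of 28 genes, of which 14 were higher and 3 lower, with a median of 0.26. Lamc1, the laminin gamma 1 chain, was one of the 2 genes without overlap, at 11.09, 11.08 and 10.43 in Control and 11.39, 11.79 and 11.35 in CKO. Its difference was 0.64 (SE 0.25, limma's adjusted p 0.976), and a second probe gave 0.93. Col4a2, a basement membrane collagen, differed by 1.37 (SE 0.72) and Col1a1, a fibrillar collagen of stroma, by 1.23 (SE 0.66). Col1a1 had 7.01 and 7.14 on CKO arrays D and E but 4.62 on F, below the 4.81 to 5.31 of Control. Both collagens were above background on 3 arrays, C, D and E, so neither passed the filter when any of these was left out. With array weights the differences were 0.31 for Col4a2 and 0.14 for Col1a1. Without array F they were 2.17 and 2.06, without A 1.19 and 1.12, and without B 1.31 and 1.20. The stroma markers, which include Col1a1, summed to 6247 on D, 2712 on E and 1062 on F. Dcn, the brightest of them, gave 12.36 on D, 10.73 on E and 9.50 on F. Vim gave 7.88, 7.65 and 5.98 on these arrays, and Thy1 gave 8.08, 8.29 and 6.48. The part of stroma in the matrix genes was not tested.

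The list of hemidesmosome partners had 3 of 7 tested genes higher and 4 lower, with a median of -0.30. Krt14, a basal keratin, gave 6.79, 7.11 and 4.99 in Control and 5.51, 4.85 and 4.88 in CKO, a difference of -1.22 (SE 0.56), with Control array C at the CKO level and only 3 arrays above background. Without array C its difference was -1.88, without E -1.11 and without F -1.12. Without A, B or D the gene no longer passed the filter on detection and was not tested. Lama3, a chain of the laminin that alpha 6 beta 4 binds, differed by -0.53 (SE 0.31) and Dst, a hemidesmosomal plakin, by -0.30 (SE 0.21). Col17a1 and Krt5 did not pass the filter on detection and were not tested.

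Adaptors and focal adhesion proteins that couple integrins to actin were tested for 21 of 29 genes, 9 higher and 12 lower, with a median of -0.04. Lims2, a partner of integrin-linked kinase, differed by -0.78 (SE 0.40) and Tln2, a talin, by -0.83 (SE 0.44). Both had their lowest value on array E, 9.23 and 4.71, and without E the differences were -0.33 and -0.35. Sharpin, an inhibitor of integrin activation, differed by -0.32 (SE 0.21). The tetraspanins and other lateral partners had 4 of 9 higher and 5 lower, with a median of -0.13: Cd81 differed by -0.38 (SE 0.21), Cd82 by -0.36 (SE 0.25) and Cd47 by -0.59 (SE 0.46). Without array E, Cd81 was at -0.29, Cd82 at -0.13 and Cd47 at -0.12. The other tested probes of Cd47 gave smaller differences with all arrays, -0.38, -0.36 and -0.08.

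The latent TGF-beta system on which beta 6 and beta 8 integrins act had 6 of 8 tested genes higher and 2 lower, with a median of 0.03. Tgfbr1, the type I TGF-beta receptor, differed by 0.23 (SE 0.39), Nrros, which holds latent TGF-beta on myeloid cells, by 0.20 (SE 0.41) and Ltbp1, a latent TGF-beta binding protein, by 0.10 (SE 0.20). Tgfbr1 and Nrros changed sign without array E, to -0.22 and -0.28. The probes of Ltbp1 had opposite signs, the second being at -0.47.

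Other apical molecules of attachment had 8 of 11 tested genes higher and 3 lower, with a median of 0.17. Fut4, a fucosyltransferase that makes Lewis x glycans, was the other gene without overlap, at 8.74, 8.98 and 8.61 in Control and 9.69, 8.99 and 9.32 in CKO, a difference of 0.56 (SE 0.23, limma's adjusted p 0.976). The closest values were those of CKO array E and Control array B, 8.99 and 8.98. Muc1, a mucin that covers the apical surface, gave 9.67, 10.40 and 9.10 in Control and 10.36, 10.58 and 10.53 in CKO, a difference of 0.77 (SE 0.33), with all 4 of its probes higher in CKO. Podxl, an anti-adhesive sialomucin, differed by -1.24 (SE 0.62), with 6.44 on array E and 8.02 to 9.65 on the others, and was at -0.60 without E. Of the list genes tested in each of the 16 alternatives, 0 passed.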

How the data were processed

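RNA of luminal uterine epithelium was hybridised to 6 Illumina bead arrays of 1 chip. The deposited scanner tables give the mean intensity of each of 45281 probes, unnormalised, with a detection p-value, the standard error over beads and the number of beads, per the file headers. The authors' deposited value table holds background-subtracted, between-array normalised intensity and served as an alternative. Extraction and isolation steps beyond the labels' protocols are not given in the sources used here.

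Intensities were background-corrected and quantile-normalised by neqc (offset 16, with its negative controls deduced from detection p-values) in limma 3.58.1 under R 4.3.3, taken to log2, and tested with lmFit and eBayes. Probes with a detection p-value under 0.05 on at least 3 arrays were kept. Adjusted p-values (Benjamini-Hochberg) are over 11940 genes, each by its brightest kept probe, or over 17291 probes. Single genes were also given an exact permutation p. The script was tested on simulated data with independent normal noise. There, 27.8% of the genes changed by 1 on the log2 scale passed, and 70.8% of those changed by 2. Probes were named through RefSeq accession (29370), symbol or synonym (6953), or by the file's name (8958).

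The members and lists were chosen with earlier results of these data known. Named beyond the 10 genes were the targeted gene, the 3 genes with the smallest p of each adhesion list, the 5 genes nearest in array profile to Spp1 and to the integrin of widest range, and markers of cell types; 1 of the genes nearest to Spp1 is not reported here. Alternatives were 10 processing choices and leaving out each of the 6 arrays; the comparison of profiles without array E was chosen after seeing the data.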

Additional observations from a re-analysis of the deposited data

Results flagged for a closer look

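The Itga1 probe ILMN_2967445 did not pass the detection filter, being above background on 1 array only, and was tested only in the alternative without a filter, where its difference was 0.19 (SE 0.31, limma's adjusted p 0.985). On that array, CKO array E, its raw signal was 104.7, against 74.6 to 82.2 on the 3 Control arrays and 69.3 and 60.3 on the other CKO arrays. It is listed because a signal above the controls stood outside the filtered data on which the main comparisons rest.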

How the results depend on the processing

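Of the member genes and adhesion list genes tested in each of 16 alternatives, and of the member probes tested in each of 15 (all but the mean of probes), 0 passed; the strict filter left 6 member genes and 9 member probes to test. Over all genes, 2 passed; 1 passed with normexp without controls, without background correction, with cyclic loess, with median scaling and on the deposited table, 0 with no filter and with the strict filter, 5 with array weights, and 0 to 1 with an array left out. Over all probes, 3 passed, against 0 with the strict filter, 6 with array weights and 0 to 2 with an array left out. Where tested, the sign of the difference was kept for 3 of 7 member genes (Spp1, Itgb5 and Itgb1), 3 of 13 member probes and 21 of 24 other named genes. With array weights the sign turned for Itgb4 (-0.035 by gene, and by probe ILMN_3144575 -0.039 and ILMN_2634689 -0.12), Itgav ILMN_1251946 (0.29), Itgb6 ILMN_2604243 (0.0099), Itga6 ILMN_1223670 (-0.35), Tgfbr1 (-0.17), Ltbp1 (-0.20) and Nrros (-0.22). Itgb1 ILMN_2609304 turned to -0.0026 with median scaling and Ltbp1 to -0.19 with the mean of its probes. With an array left out, differences ran from -0.039 to 0.81 for Itgav ILMN_1238119, -0.18 to 0.15 for ILMN_1251946, -0.82 to 0.018 for Itgb6 ILMN_2805372, -0.86 to 0.12 for ILMN_2805375, -0.24 to 0.37 for Itgb1 ILMN_2609304, -0.012 to 0.41 for Itga6 ILMN_1231492, -0.29 to 0.28 for ILMN_1223670, -0.16 to 0.53 for Itgb4 ILMN_3144575, -0.12 to 0.65 for ILMN_2634689, -0.22 to 0.49 for Tgfbr1 and -0.28 to 0.52 for Nrros. For Ltbp1 they ran from -0.52 to 0.25, but the -0.52, without array D, is from its other probe, because the first then no longer passed the detection filter. The causes of the other changes were not tested. With 3 arrays a group the number of arrays limits the precision.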
